A study of Rattus norvegicus with 2 samples.

Results

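Single-exon new genes were the loci on the study's list of new genes for which every transcript model had exactly 1 exon, that is, no intron. They numbered 794 of the 1507 new genes (52.7%) and of the 16678 loci in the assembled annotation of rat femur RNA. Total RNA of femurs was sequenced, from Wistar rats that had either lost both ovaries (bilateral ovariectomy, OVX) or undergone a sham operation (SHAM). The labels used here named 1 OVX and 1 SHAM sample, both at week 16, and coded them Old (OVX) and Young (SHAM), whereas the paper's methods give several sequenced rats per group, another feeding time and no such codes. The deposited files held positions and attributes of transcript models and no count or expression value, so the depth was unknown from them and no difference between OVX and SHAM could be computed.

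A spliced transcript shows its strand through the bases at its splice sites, whereas a single-exon model has no splice site to read. Transcripts without introns include replication-dependent histone mRNAs, many long non-coding RNAs, antisense transcripts and RNA that continues past the end of a gene. In femur, RNA comes from bone cells and from the marrow, where blood cells are formed.

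Each transcript model was recorded as found in 1 or in both of the assemblies that the authors had merged, and the files did not say which rats had entered either assembly. The first and the second assembly could be told apart by the numbering of the models, and neither was assigned to OVX or SHAM. Positions are those of the deposited files. The genome of that build was not used here, so the bases of the single-exon new genes themselves are not shown. The sequences below are of current genes from RefSeq on the GRCr8 build. Some were chosen because the genes lay in the same gap between matched named neighbours as one of the longest single-exon new genes. Others were chosen because the genes, as assembled, started beside a single-exon new gene.

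One of the 8 longest single-exon new genes, XLOC_015624 (chromosome 19, 23507919 to 23511359, minus strand, 3441 bp), lay between Zswim4, a zinc finger gene, and Brme1, which the files name RGD1306072. It was found in the second assembly only and lay on the 3′ side of Zswim4 at a gap of 7325 bp. In GRCr8 the interval between the same neighbours holds 8 genes. The first 3 after Zswim4 are Mir24-2, Mir27a and Mir23a, whose microRNAs are cut from a shared primary transcript. Their strand is opposite to that of Zswim4, as was the strand of XLOC_015624. The others are Mir181c, Mir181d, Nanos3 and 2 long non-coding RNA genes. The mature sequences are printed 5′ to 3′ with the seed, bases 2 to 8, in capitals. miR-181c-5p and miR-181d-5p share their seed, and the seeds of the other microRNAs printed differ from each other.
miR-23a-3p (chr19:40859778-40859798, minus strand): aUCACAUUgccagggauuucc
miR-27a-3p (chr19:40859614-40859634, minus strand): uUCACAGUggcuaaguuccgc
miR-27a-5p (chr19:40859655-40859676, minus strand): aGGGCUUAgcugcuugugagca
miR-24-3p (chr19:40859481-40859502, minus strand): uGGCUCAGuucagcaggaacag
miR-24-2-5p (chr19:40859517-40859538, minus strand): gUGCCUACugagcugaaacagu
miR-181c-5p (chr19:40888314-40888335, plus strand): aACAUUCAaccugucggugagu
miR-181d-5p (chr19:40888484-40888506, plus strand): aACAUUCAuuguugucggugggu

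Whether XLOC_015624 covers the microRNA hairpins was not tested, because its positions and those of the hairpins are on different builds. XLOC_015622 (1889 bp, minus strand) lay on the same chromosome at 23428377 to 23430265 and was found in both assemblies. Among the 187 single-exon new genes between matched neighbours no more than 100 kb apart, 1 other gap held current microRNA genes. It was that of XLOC_003204 (chromosome 3, 285 bp, second assembly only), between RGD1306599 and Odf2, where GRCr8 lists Mir2964 and Mir219-2. This gene was chosen after its values were seen.

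In all, 31 single-exon new genes lay within 1 kb upstream of a named gene, where promoters lie. Of the neighbouring genes, 8 had a promoter sequence in the RefSeq table, and 3 of these are shown as the 250 bases before the start, on the strand of the gene, with every CG dinucleotide in capitals. Arhgef11, a guanine nucleotide exchange factor, had the most CG dinucleotides of the 8 (40). Gsk3b, the kinase that marks beta-catenin for degradation in Wnt signalling, had the fewest (5). Cdkn2c, an inhibitor of the cell cycle kinases Cdk4 and Cdk6, had 24, and its single-exon neighbour was found in both assemblies.
Arhgef11 (chr2:175372040-175372289, plus strand): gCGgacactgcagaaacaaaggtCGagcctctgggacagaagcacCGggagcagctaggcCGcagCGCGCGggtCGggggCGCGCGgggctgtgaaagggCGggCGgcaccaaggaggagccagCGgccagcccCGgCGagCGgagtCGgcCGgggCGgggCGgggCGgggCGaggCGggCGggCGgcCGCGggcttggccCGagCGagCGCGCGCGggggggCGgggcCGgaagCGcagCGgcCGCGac
Cdkn2c (chr5:129644892-129645141, minus strand): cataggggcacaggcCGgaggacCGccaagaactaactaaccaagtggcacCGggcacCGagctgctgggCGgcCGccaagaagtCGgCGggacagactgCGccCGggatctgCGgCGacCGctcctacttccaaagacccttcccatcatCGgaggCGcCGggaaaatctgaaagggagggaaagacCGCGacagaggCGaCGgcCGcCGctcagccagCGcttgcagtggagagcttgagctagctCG
Gsk3b (chr11:76153250-76153499, minus strand): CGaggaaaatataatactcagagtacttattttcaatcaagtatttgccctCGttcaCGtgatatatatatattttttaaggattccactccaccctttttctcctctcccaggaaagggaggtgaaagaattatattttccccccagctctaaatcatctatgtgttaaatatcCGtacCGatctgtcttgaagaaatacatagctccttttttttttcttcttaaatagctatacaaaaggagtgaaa

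Of these 8 promoters, 7 held 10 or more CG dinucleotides, against 74.6% of the 6609 promoters of named genes in the annotation and 35.9% of all 33469 promoters in the table. The motif TATAAA, searched on both strands, was in none of the 8 and in 12.9% of all promoters. The nearest single-exon new gene upstream of a named gene lay in front of Acaa2, a mitochondrial thiolase of fatty acid oxidation. XLOC_015095 (368 bp, first assembly only) lay 116 bp away on the strand of Acaa2, and XLOC_015285 (209 bp, second assembly only) covered the same place on the other strand at 132 bp. The gene in front of Gsk3b, XLOC_011364 (chromosome 11, 62147240 to 62148117, 878 bp), lay 130 bp away on the opposite strand and was found in the second assembly only. Those in front of Mcur1 (XLOC_014729, 240 bp) and Arhgef11 (XLOC_002908, 221 bp) were also on the opposite strand and in the second assembly only, at 180 and 222 bp. XLOC_006112 (chromosome 5, 123157070 to 123157511, 442 bp) lay 249 bp before Cdkn2c on the same strand. Of the 31 genes, 18 were on the strand of the neighbour and 13 on the opposite strand. Upstream was measured from the assembled span of the neighbour. Arhgef11, Mcur1 and Kctd5, all among the 8, had no transcript that matched the reference exactly. Whether the assembled starts are those of the RefSeq promoters was not tested.

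The single-exon new genes were short. Their median length was 321.5 bp, with the middle 80% between 221 and 817 bp, and 375 kb were covered in sum. The shortest were 3 genes of exactly 200 bp, XLOC_010034, XLOC_008218 and XLOC_009224, all in the second assembly only. Under 300 bp lay 350 genes (44.1%), and 61 (7.68%) reached 1000 bp. Spliced new genes, those with 2 or more exons, were shorter in exon sequence (median 294 bp). Named genes with a single exon were longer (median 857 bp), as were named genes in general (1522 bp).

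Few of the single-exon new genes were found in both assemblies. A transcript was shared by both in 48 (6.05%), and another 14 had a separate transcript from each assembly on the same strand, which gives 62 (7.81%). The first assembly alone held 354 and the second alone 378. Spliced new genes were found in both in 20.2% and single-exon named genes in 55.5%. Genes in the first assembly only had a median of 365 bp, those in the second only 282 bp and those in both 450.5 bp. The longest of all was in both. XLOC_002808 (chromosome 2, 98060558 to 98065943, minus strand, 5386 bp) lay between Gyg1, which primes glycogen synthesis, and Cpa3, a mast cell protease, with a gap of 19124 bp to Cpa3 on the same strand. GRCr8 lists 1 gene between them, the pseudogene Eif4g1-ps1.

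**Figure D1:**
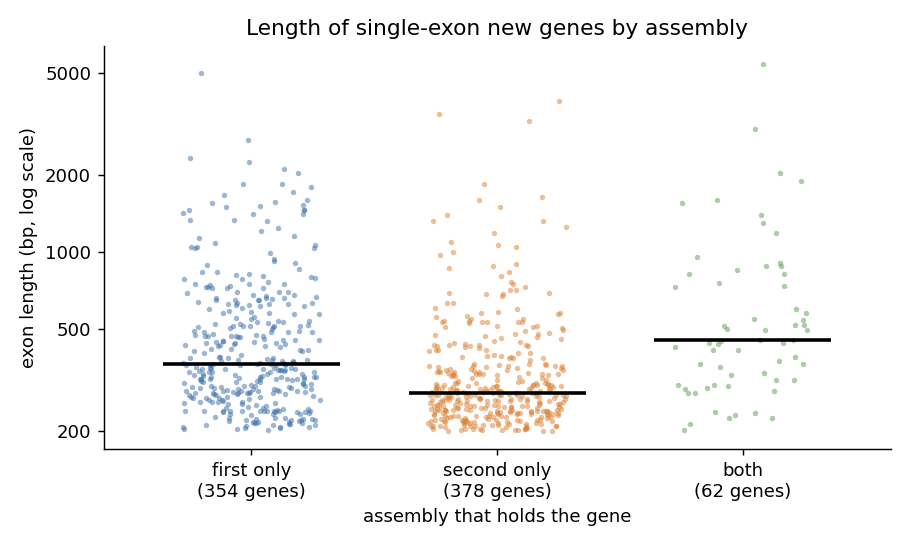
Exon length in bp on a log scale for each single-exon new gene (points), by the assembly that held it; black lines are medians (365 bp first only, 282 bp second only, 450.5 bp both). The 3 sets of points overlap over most of their range, and genes of 200 to 300 bp are densest in the second assembly.

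Length and presence in both assemblies moved together. Of the 189 single-exon new genes under 250 bp, 7 were in both (3.70%), against 18 of 138 between 500 and 999 bp (13.0%). Among spliced new genes of the same lengths the shares were 0.966% and 52.9%, and among single-exon named genes 33.3% and 48.5%. Below 300 bp the single-exon new genes had no lower a share than the spliced ones, whereas in each length class from 300 bp they had the lowest share of the 3 kinds. Length is that of all exons of a gene together, so a gene with separate transcripts from each assembly can be longer for that reason alone. Such genes were 76 of the 144 spliced new genes in both assemblies and 14 of the 62 single-exon ones. How far this shaped the comparison was not tested. Loci are not replicates, and no test was made.

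**Figure D2:**
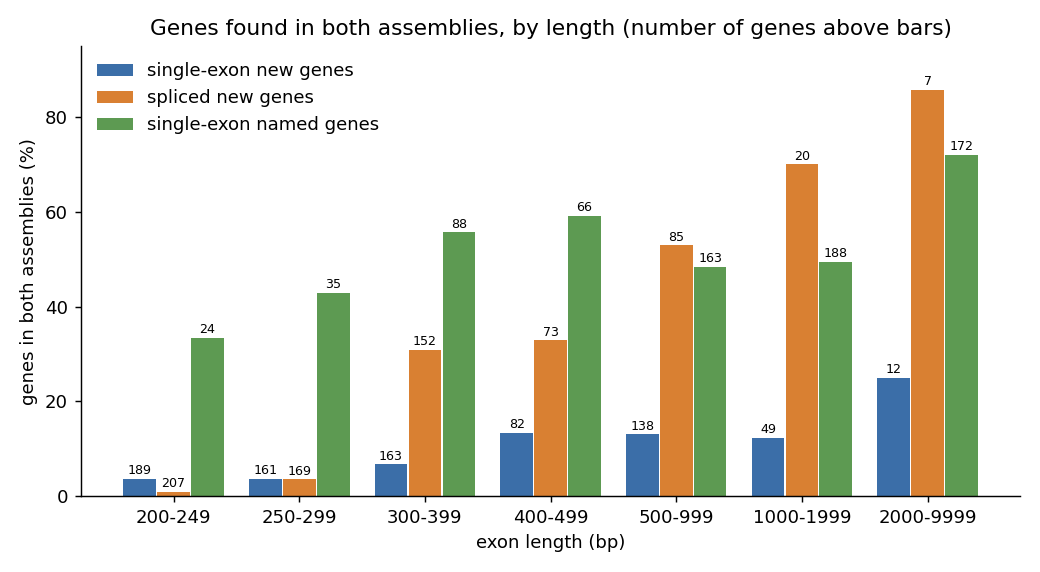
Percent of genes found in both assemblies, by exon length, for single-exon new genes, spliced new genes and single-exon named genes; the numbers above the bars are genes per class. The bars of single-exon new genes stay at or below 25%, while those of spliced new genes reach 52.9% at 500 to 999 bp. Genes with separate transcripts from each assembly can be longer for that reason alone.

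The assemblies often held a single-exon model at the same place on opposite strands. Single-exon new genes formed 53 pairs that overlapped each other, which took in 104 genes. Every pair was on opposite strands, which follows from how genes are defined. Models that overlap on the same strand are joined into 1 gene, as in the genes with a separate transcript from each assembly. In 25 pairs the first assembly held the plus strand and the second the minus strand, and in 27 it was the other way round. The remaining pair was XLOC_015984 and XLOC_016219, of which the former was in both assemblies. No pair came from 1 assembly alone. The median share of the shorter gene that was covered by its partner was 100%, and 34 shorter genes were covered in full. In 13 pairs both ends lay within 10 bp of each other, and in none were they identical.

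Some of these mirrored models were long. XLOC_002337 and XLOC_002883 on chromosome 2 were 1317 bp each and shared 1314 bp, with both ends shifted by 3 bp. XLOC_011255 (1641 bp) and XLOC_011492 (1845 bp) on chromosome 11 shared 1638 bp. These pairs were chosen after their values were seen. On chromosome 13, XLOC_012643 (3867 bp, minus strand, second assembly) covered all 2098 bp of XLOC_012371 (plus strand, first assembly). They lay between Rab29 and Slc45a3, where GRCr8 lists LOC102556005, Nucks1, a nuclear casein kinase substrate, and the pseudogene Ran-ps4.

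The assemblies placed 62 single-exon new genes on the same strand and 51 pairs on opposite strands (45.1% opposite). Pairs on opposite strands had to overlap by at least 50% of the shorter model. No minimum overlap was set for the same-strand counts, here or for spliced new genes. Spliced new genes gave 144 on the same strand and 0 pairs on opposite strands between the assemblies, while 4 opposite-strand pairs of spliced new genes came from within 1 assembly. A named gene takes its name from the strand of the reference, so single-exon named genes were compared with any single-exon model of the other assembly on the opposite strand. Such a model lay over 15 of the 349 that were in 1 assembly (4.30%). A model of this kind, of any class, lay over 120 of the 732 single-exon new genes that were in 1 assembly (16.4%). In class u, models between reference genes, 58 were on the same strand and 45 pairs on opposite strands. In class r, models mostly over repeats, the numbers were 3 and 6.

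Overlapping genes together occupied 741 distinct places. Both assemblies held 62 of these places on the same strand (8.37%) and a further 50 on opposite strands (6.75%), so that strand aside 112 places (15.1%) were in both. This share was 5.76% for places under 300 bp and 37.5% for those of 1000 bp or more. Of the latter, 9 were on the same and 12 on opposite strands. A place has the span of its overlapping models together, so a place in both assemblies can be longer for that reason alone.

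**Figure D3:**
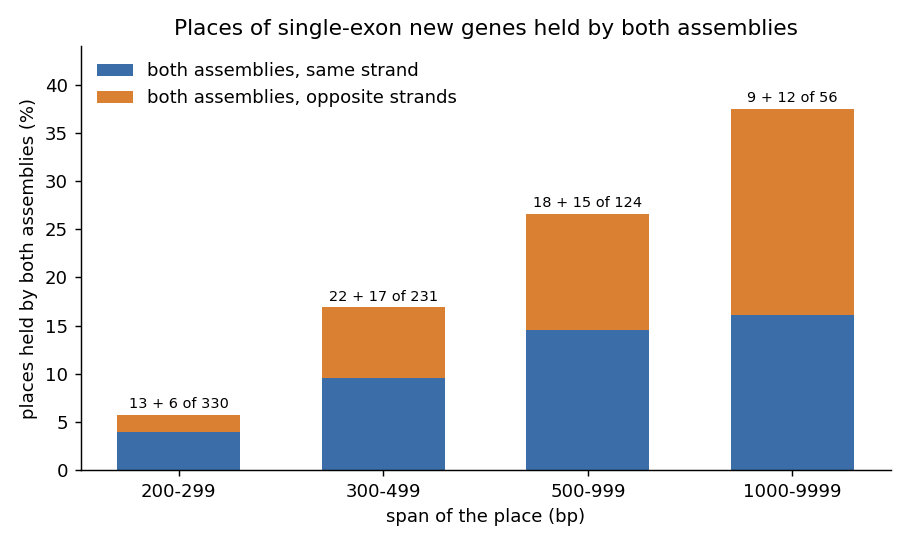
Percent of places held by both assemblies against the span of the place in bp, split into models on the same strand and on opposite strands; the text above each bar gives their numbers and the number of places. The total rises from 5.76% to 37.5%, and at 1000 bp or more the opposite-strand part (12 places) is larger than the same-strand part (9 places).

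The 14 genes with a separate transcript from each assembly showed how far the ends of 1 model varied. The 5′ ends differed by more than the 3′ ends in 9 of them. The 3′ ends were within 10 bp in 6 and the 5′ ends in 2. XLOC_001196 (chromosome 1, 69398792 to 69399977, minus strand) had transcripts of 1186 and 432 bp with the same 3′ end and 5′ ends 754 bp apart. XLOC_006234 (735 bp) went the other way, with 5′ ends 3 bp and 3′ ends 235 bp apart.

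By class, 706 genes (88.9%) were class u and 87 (11.0%) class r, and 1, XLOC_004570, had a transcript of each. Class r genes had a median of 300 bp and 3 of them were in both assemblies (3.45%), against 326.5 bp and 58 (8.22%) for class u. The class r share among spliced new genes was 10.8%. The list took in 719 of the 738 single-exon transcripts of class u and all 89 of class r. It held none of the 1197 that lay within introns, the 516 antisense to a reference exon or the 190 called possible run-on past the end of a reference gene.

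Where they lay relative to named genes differed between near and far. Of the 794 genes, 71 (8.94%) overlapped the span of a named gene and 723 did not. The gap of these 723 to the nearest named gene had a median of 10915 bp, and 289 (40.0%) lay within 5 kb, against 174 of 640 spliced new genes (27.2%). Beyond 50 kb lay 205 (28.4%), of which 19 were more than 1 Mb away. Class r made up 5.54% of the genes within 5 kb and 14.6% of those beyond 50 kb. The shares in both assemblies were 5.54% and 11.2%.

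Within 5 kb, 163 of the 289 genes (56.4%) were downstream of the neighbour on the opposite strand. The others were 50 downstream on the same strand, 47 upstream on the same strand and 29 upstream on the opposite strand. Together 213 (73.7%) were downstream and 192 (66.4%) on the opposite strand. Beyond 50 kb the numbers in the same order were 32, 45, 66 and 62, so that 37.6% were downstream. Spliced new genes within 5 kb gave 24, 55, 62 and 33. By assembly, 95 of 154 near genes were downstream on the opposite strand in the first only and 63 of 119 in the second only. Run-on models were left off the list for both assemblies, so the second count is no independent repeat of the first. Among the 12 near genes with a shared transcript, 3 were downstream. With separate transcripts counted too, 16 near genes were in both assemblies. Of these, 5 were downstream on the opposite strand and 2 downstream on the same strand. Upstream were 6 on the same strand and 3 on the opposite strand.

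The study's list leaves out run-on models, which by definition follow a reference gene on its strand. Of 121 loci made of run-on models within 2 kb of a named gene, 113 lay downstream on the same strand and 4 downstream on the opposite strand. The single-exon new genes within 2 kb included 7 and 104 in these positions. Added together, 120 loci downstream within 2 kb were on the strand of the neighbour and 108 on the opposite strand (47.4%). The opposite-strand shares of near single-exon new genes, and their counts beside spliced new genes, are those left after run-on models were taken out. Of the 163 genes downstream on the opposite strand within 5 kb, 10 lay over a run-on model of the other assembly and 5 had a partner gene on the other strand. Whether the strand of these genes is that of their RNA was not tested.

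**Figure D4:**
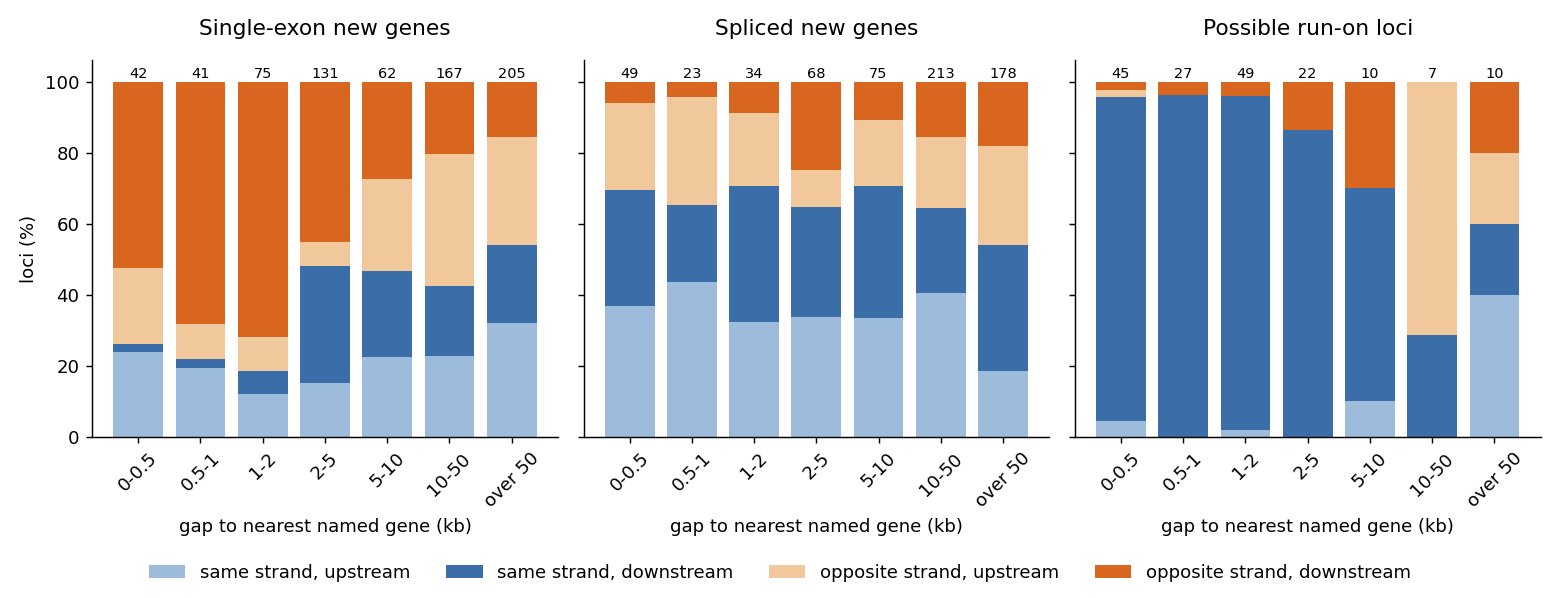
Percent of loci in each position relative to the nearest named gene, by the gap to it in kb, for single-exon new genes, spliced new genes and possible run-on loci; numbers above the bars are loci. For single-exon new genes the share downstream on the opposite strand is highest at 1 to 2 kb (54 of 75 loci), and 43 of the 50 genes downstream on the same strand within 5 kb lie between 2 and 5 kb.

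Of 42 genes within 500 bp, 22 were downstream on the opposite strand and 1 downstream on the same strand. Upstream lay 10 on the same strand and 9 on the opposite strand. The genes named next were picked by nearness in each position or by length, so they do not show how common a position was. XLOC_001452 (424 bp) lay 3 bp past the end of Abhd2, a lipid hydrolase, on the opposite strand, and Abhd2 had 3 single-exon new genes within 5 kb. On the opposite strand and downstream as well were XLOC_015984 (3012 bp), 689 bp past Eif4ebp2, a repressor of cap-dependent translation, and XLOC_000388 (2732 bp, first assembly only), 1537 bp past Klf13, a Kruppel-like transcription factor that the files name RGD1565099. On the same strand and downstream, XLOC_008804 (1391 bp) lay 1521 bp past Cbl, a ubiquitin ligase, with a transcript in each assembly. XLOC_012410 (418 bp, first assembly only) lay 931 bp past Kif21b, a kinesin. The second longest gene, XLOC_013916 (4969 bp, first assembly only), was far from its neighbour, at 85952 bp from Ercc6, a DNA repair gene. XLOC_003694 (2318 bp) lay 554 bp before rCG_37466, a gene known here only by number.

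Of the 71 genes that overlapped a named gene, none was in both assemblies. The first alone held 19 and the second alone 52, and their median length was 297 bp. On the strand of the named gene were 27 and on the opposite strand 44, and 16 were class r. The span of the named gene contained 67 of the 71 in full, 40 of them on the opposite strand. An exon was overlapped by 7 (0.882%), all on the opposite strand. The strand follows from how genes are defined, as a model over an exon on the same strand is joined to that gene. The share is that left after models antisense to a reference exon were kept off the list. The longest of the 7 was XLOC_011339 (2241 bp), which shared 19 bp with an exon of Cd47, the signal that restrains phagocytosis. XLOC_015728 (1661 bp) shared 456 bp with exons of RGD1306101. XLOC_014626 (1448 bp) shared 471 bp with rCG_55757 and 87 bp with rCG_55793. XLOC_014312 (984 bp) lay wholly within an exon of Tacc1, a centrosomal protein. XLOC_002946 (884 bp) shared 459 bp with Gatad2b, a subunit of the NuRD complex. Classes u and r are given to models that overlap no reference transcript, and 66 of the 71 lay outside the span of any transcript that matched the reference exactly. For 33 of these the named gene had no such transcript.

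Runx1 held the most. Its protein is the transcription factor required for definitive blood stem cells, and the gene is transcribed from a distal and a proximal promoter. Of the single-exon new genes, 12 lay within its span (chromosome 11, 31491781 to 31718808, minus strand), and no other named gene had more than 3. Transcripts of 5 and 6 exons matched the reference exactly and spanned 92097 bp. Another, of 8 exons with a junction not in the reference, started 134.9 kb farther upstream, and all 12 genes lay in this added stretch between its exons. The 3 Runx1 transcripts were each in both assemblies, whereas 6 of the 12 single-exon genes were in the first only and 6 in the second only. They were 250 to 785 bp long and 5156 bp in sum. On the strand of Runx1 were 5 and on the opposite strand 7, and 4 were class r, among them the longest ones, XLOC_011539 (785 bp) and XLOC_011537 (603 bp). Intronic RNA of this transcript and separate transcripts cannot be told apart from these files.

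**Figure D5:**
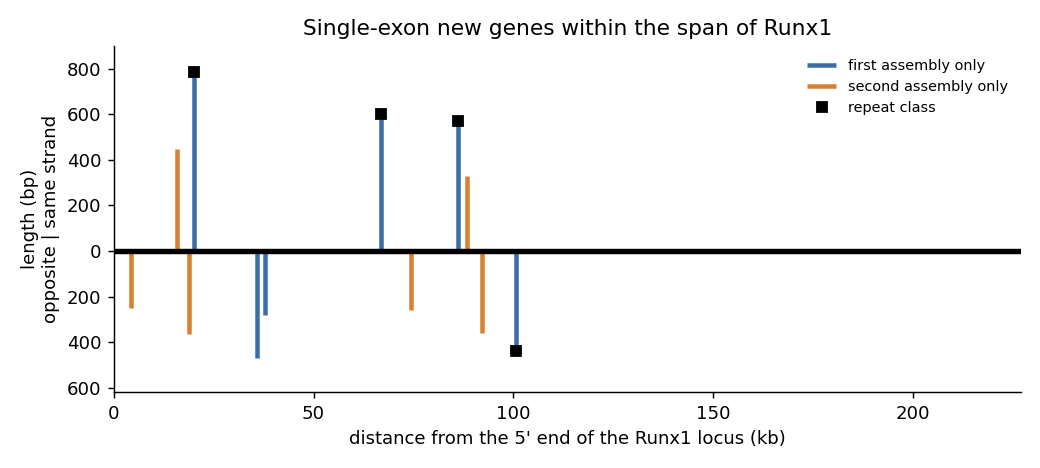
The 12 single-exon new genes within the span of Runx1, by distance from the 5′ end of the locus in kb (x axis) and length in bp (y axis, upward on the strand of Runx1, downward on the opposite strand), coloured by assembly; squares mark class r. All 12 lie toward the 5′ end, the farthest starting 100.6 kb from it in a locus of 227 kb, and 6 come from each assembly.

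The genes were spread over all 21 chromosomes, with a median of 6.40 per 100 named genes, from 4.36 on chromosome 20 to 10.2 on chromosome 17. Within 10 kb of each other lay 258 genes in 113 runs, of which 23 had 3 or more. These runs include opposite-strand pairs at the same place, each counted as 2 genes. Both of the largest runs were on chromosome 17 between matched histone genes, which supply histones during DNA replication and have no introns. The run of 6 (41009464 to 41017422) lay between Hist1h1a and H1f4 and was made up of 2 opposite-strand pairs and 2 further genes, 1 of them in both assemblies (XLOC_014510, 440 bp). The run of 5 (53752149 to 53764551) lay between Hist1h2bn and Hist1h4b. It held XLOC_014839 (374 bp) and XLOC_014840 (497 bp), both in both assemblies, and the pair XLOC_014553 (1232 bp) and XLOC_014836 (1187 bp). GRCr8 lists 39 genes in this gap, among them histone genes, many tRNA genes and others such as Zfp184 and Prss16.

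In all, 14 single-exon new genes lay in a gap with a histone gene at its border or, in GRCr8, inside it, 12 on chromosome 17 and 2 on chromosome 2. Of the 14, 6 were in both assemblies, beside 62 of all 794 (7.81%). The 12 on chromosome 17 had a median length of 453.5 bp, between 237 and 1232 bp. This gene set was chosen after the runs were seen. The limit of 100 kb on a gap, used elsewhere, was not applied here. Genes that GRCr8 lists in the gap of the run of 5 recur in that of XLOC_014799, which starts at 41191803 in the files. The order of genes thus differs between the annotations here. Histone genes are near-identical copies, so reads and names can be divided among them, and whether these models are histone mRNAs was not tested.

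There were 4 runs of 4 genes, on chromosomes 1, 4, 11 and 17, each with 2 genes from the first assembly only and 2 from the second only, and that on chromosome 11 lay within Runx1. The run on chromosome 1 (200665002 to 200669596), which comes first by position, held 2 genes of each strand. XLOC_001840 (3225 bp, minus strand, second assembly) covered XLOC_000797 (264 bp) and XLOC_000798 (654 bp) on the plus strand, both from the first assembly, and XLOC_001839 (710 bp, minus strand) lay beside it. The left end of XLOC_000797 was the same as that of XLOC_001840, and the right ends of XLOC_000798 and XLOC_001840 were 2 bp apart. Identity with any current gene was not tested.

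A few genes of bone and marrow had a single-exon new gene beside them, and the share was near that of all named genes. Of 120 genes in 8 lists, 79 were found by symbol in the annotation. Of these, 3 had a single-exon new gene within 5 kb (3.80%) and 7 within 50 kb (8.86%), beside 2.63% and 7.66% of all 12308 named genes. None of the 8 genes beside them was in both assemblies. The files named 16 of 18 osteoblast and osteocyte genes. Among them Sost, the sclerostin inhibitor of Wnt signalling from osteocytes, had XLOC_010362 (chromosome 10, 85640239 to 85640813, 575 bp) 5474 bp upstream on the opposite strand. The nearest named gene to it was Dusp3, a phosphatase, 1583 bp away. Pdpn, a marker of early osteocytes, had XLOC_006334 (246 bp) at 22542 bp.

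Of the 19 signalling genes of the Wnt, BMP and TGF-beta pathways found, 2 had a single-exon new gene within 5 kb. The gene past Lrp6, a Wnt co-receptor, was XLOC_004823 (576 bp) at 1634 bp, and the gene past Bmpr2, a BMP receptor, was XLOC_009661 (216 bp, class r) at 2335 bp. Both lay downstream on the opposite strand. The nearest named gene to XLOC_009661 was rCG_22492, and it lay 802 bp upstream of that gene on its strand. Among 8 osteoclast genes, Acp5, the acid phosphatase used to stain osteoclasts, had XLOC_008270 (286 bp) at 15438 bp. Of 11 oestrogen receptor and response genes 4 were found, without Esr1 and Esr2, and among these Ncoa2, a coactivator of nuclear receptors, had the pair XLOC_005365 and XLOC_005878, of 203 bp each and shifted by 1 bp on opposite strands, at 31038 and 31039 bp. The 8 cartilage, 7 muscle and 7 adipocyte genes found had none within 50 kb.

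Some gaps that held a single-exon new gene hold a gene in the current annotation. For 187 of the 794 (23.6%), the nearest named genes matched to GRCr8 on either side were no more than 100 kb apart. Named genes without a match were passed over and can lie in these gaps. In 93 of the 187 (49.7%) GRCr8 lists at least 1 further gene between the matched genes. Single-exon new genes in the same gap were counted separately. The share for gaps that held no single-exon new gene was not computed, so 49.7% is not shown to be particular to these genes. A protein-coding gene was listed in 71, a long non-coding RNA gene in 33 and a pseudogene in 31. Whether a listed gene is one that the files name otherwise was not tested. In 42 exactly 1 further gene was listed. Beside Acaa2, for example, the gap to Myo5b holds Scarna17 and Scarna18, small RNAs of Cajal bodies, and LOC120098116. A gene in the same gap is not shown to be the same transcript.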

How the data were processed

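RNA-seq reads of rat femurs came, per the labels, from 1 OVX and 1 SHAM sample. The deposited files gave the positions of assembled transcripts and of the new genes. Their other values were the number of assemblies and the class of each transcript. The authors assembled the transcripts with StringTie. The submitters' processing notes also name FastQC, HISAT2, featureCounts and rn4. Versions are not given in the sources used here, and whether the positions are on rn4 could not be checked. Depth is unknown, and no test or paired comparison between groups was made.

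Positions were used 1-based. The list starts 1 base lower than the annotation for all 794 genes, and all ends and strands were equal. A named gene is a locus with a gene name that is not on the list. The nearest named gene was taken by the gap between spans, and upstream and downstream by the strand of that gene. The assembly of a transcript was read from the numbering, which runs through both strands and then again on 21 of 21 sequences. Names were matched to GRCr8 by symbol or older symbol, for 7572 of 12308 named genes (61.5%), of which 99.2% fell on the chromosome read from the order of the sequences. Gaps were compared by the names of the nearest matched genes on either side, and no positions were converted between builds. The steps were tested on simulated loci. As a locus is no replicate of a condition, values are given as counts, shares and medians.

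The genes and lists were chosen with earlier results of these data known. The genes named are the 8 longest, the 3 shortest, those with more than 1 transcript (up to 8), the 8 longest in both assemblies, the 5 nearest in each of the 4 positions, the 8 longest that overlap a named gene, those within 50 kb of a listed gene and the 3 largest runs within 10 kb, with the tie among 4 runs of 4 genes settled by position, and the text gives those that the results turn on. Some gene names are not reported here. The count of genes within Runx1, the mirrored pairs and the histone gaps were taken up after the values were seen. Alternatives were a minimum of 300 bp, class u only, both assemblies only and windows of 1 and 10 kb. Others were neighbours matched to a protein-coding gene only, exon overlap only and merging within 1 kb. Those on opposite-strand pairs and on each assembly were added after seeing the data. Python 3.11.15, numpy 2.4.6, pandas 2.3.3, scipy 1.17.1 and matplotlib 3.10.9 were used.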

Additional observations from a re-analysis of the deposited data

How the results depend on the processing

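The number of single-exon new genes was 48 with a shared transcript required, 444 with at least 300 bp required, 706 in class u and 701 after merging within 1 kb. With a shared transcript required the median length was 439 bp. The share in both assemblies was 8.11% from 300 bp. The share overlapping a named gene was 0.882% over exons. The share within 5 kb became 11.5% at 1 kb, 48.5% at 10 kb and 25% (12 of 48) with a shared transcript. With neighbours matched to a protein-coding gene it became 24.8%. The downstream share became 62.7% at 1 kb, 82.8% with neighbours matched to a protein-coding gene and 25% (3 of 12) with a shared transcript. Of the matched named genes, 7564 of 7572 were protein-coding, so this neighbour rule left out mainly named genes without a match. The opposite-strand share became 75.9% at 1 kb and 41.7% (5 of 12) with a shared transcript. A window, neighbour or exon rule changes what is counted, and the cause of the other shifts was not tested. Of the 289 genes within 5 kb, 16 were in both assemblies, counting separate transcripts. The downstream and opposite-strand shares near named genes therefore mainly describe models found in 1 assembly. In the alternatives chosen after seeing the data, without opposite-strand pairs or within each assembly alone, the downstream share lay between 72.3% and 77.9% and the opposite-strand share between 67.2% and 67.9%. Run-on models were left out of all of these. No paired analysis was possible because each group had 1 sample without values. Depth, which limits which short models are assembled, is unknown here.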
